A study of Mus musculus with 8 samples.

Results

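The insulin-like growth factor (IGF) axis was followed through 10 genes in cardiac fibroblasts of the pressure-overloaded mouse heart: the ligands Igf1 and Igf2, the receptors Igf1r and Igf2r, and the binding protein genes Igfbp2 to Igfbp7. The members were chosen by gene symbol, and all 10 were found among the 34399 symbols of the deposited tables. RNA was sequenced from fibroblasts isolated from the ventricles 4 weeks after transverse aortic constriction (TAC), a surgical narrowing of the aorta performed at 8 to 10 weeks of age. Every group carried a tamoxifen-inducible Cre (MerCreMer) knocked into a fibroblast gene and a Cre-dependent eGFP reporter in the Rosa locus. All mice received tamoxifen injections of 100 mg/kg on 2 days and then tamoxifen chow at 40 mg/kg. Cre sat in the Postn locus, which is active in activated fibroblasts, in the Postn-Cre controls (HK3 and HK4) and in the double knockout (DKO) of loxP-targeted Smad2 and Smad3 (HK15 and HK16). It sat in the Tcf21 locus, which marks resident fibroblasts, in the Tcf21-Cre controls (HK6 and HK7) and in the DKO of loxP-targeted Tgfbr1 and Tgfbr2 (HK2 and HK4). The cells were sorted by GFP, the product of the recombined reporter.

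IGF1 and IGF2 are secreted growth factors that act mainly through IGF1R, a receptor tyrosine kinase that signals through IRS adaptors, PI3K and AKT. IGF2R, the cation-independent mannose 6-phosphate receptor, carries lysosomal enzymes and takes up IGF2 for degradation. IGFBP2 to IGFBP6 bind the ligands with high affinity, hold them in the matrix or the circulation and release them when proteases cut the binding protein, whereas IGFBP7 binds them weakly. Fibroblasts and macrophages are sources of IGF1 in the heart, and TGF-beta is known to act on several IGFBP genes in cultured cells.

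Library totals ran from 21477742 to 32594649 counts, and levels are given as CPM, the count scaled to the library total. Each knockout was sequenced in one run with its own controls, called here the Postn-Cre run and the Tcf21-Cre run, so run, Cre driver and targeted genes changed together between the pairs and cannot be told apart. Nothing in the labels states whether the 2 libraries of a group stem from separate or pooled animals, so p-values reflect no more than the spread between these libraries, which may be technical. In the controls and the DKO of the pair concerned, the targeted genes had 82.3 to 95.4 and 78.2 to 84.5 CPM (Smad2), 92.7 to 114 and 70.5 to 109 CPM (Smad3), 229 to 238 and 181 to 193 CPM (Tgfbr1) and 370 to 406 and 406 to 471 CPM (Tgfbr2). Such totals over a whole gene say nothing about the loss of single exons. Fibroblast markers were abundant in every library, with 12 of 12 above 0 in each group. Their summed level was 24537 to 28567 CPM in the Postn-Cre controls and 20082 to 20327 in the Smad2/3 DKO. It was 40334 to 49520 in the Tcf21-Cre controls and 36897 to 37428 in the Tgfbr1/2 DKO. Of the 12, 3 were called in the Smad2/3 DKO, all lower, beside 0.844% of all symbols tested. These collagen genes, Col1a1, Col1a2 and Col3a1, fell by 1.69, 1.44 and 2.15 on the log2 scale (edgeR adjusted p of 8.05e-05 to 0.0011). The other 9 had values from -0.65 (Lum) to 0.50 (Postn), and the list median was -0.20. None of the 12 was called in the Tgfbr1/2 pair (list median -0.18). Xist, the X-inactivation RNA of female cells, had 277 and 75.3 CPM in Smad2/3 DKO HK15 and HK16 and 1.07 to 3.65 CPM in the other 6 libraries, while the Y-linked Ddx3y was present in all 8 (56.6 to 222 CPM). Between the control groups, 5 of 12 fibroblast markers were called higher and 1 lower in the Tcf21-Cre controls, beside 34.9% of 17770 symbols called. Postn RNA was at 208 and 186 CPM in the Postn-Cre controls. In the Tcf21-Cre controls it was at 1615 and 3076 CPM (3.30 ± 0.32 log2, edgeR adjusted p = 9.09e-05). Fewer cells of a type and less RNA per cell cannot be told apart in such bulk libraries.

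Per kilobase of merged exon, Igfbp7 stood far above the other members in every library, at 2308 to 3639 CPM per kb. The next 5 genes were of similar order: Igf1 (20 to 61.7 CPM per kb), Igf2r (31.1 to 76.9), Igfbp4 (28 to 164), Igfbp5 (19.4 to 150) and Igfbp6 (14.8 to 122). Igfbp3 ran from 9.94 to 75.6 CPM per kb. The mitogenic receptor gene Igf1r (1.74 to 3.39 CPM per kb) and the ligand gene Igf2 (2.81 to 8.69) were lower in every library. Igfbp2 was at the limit of detection, with 7 counts at most in any library and 0 counts in Postn-Cre control HK4 and in both Smad2/3 DKO libraries, which allows up to 0.14 CPM. It did not pass the low-count filter, so 9 of the 10 members were tested.

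**Figure D1:**
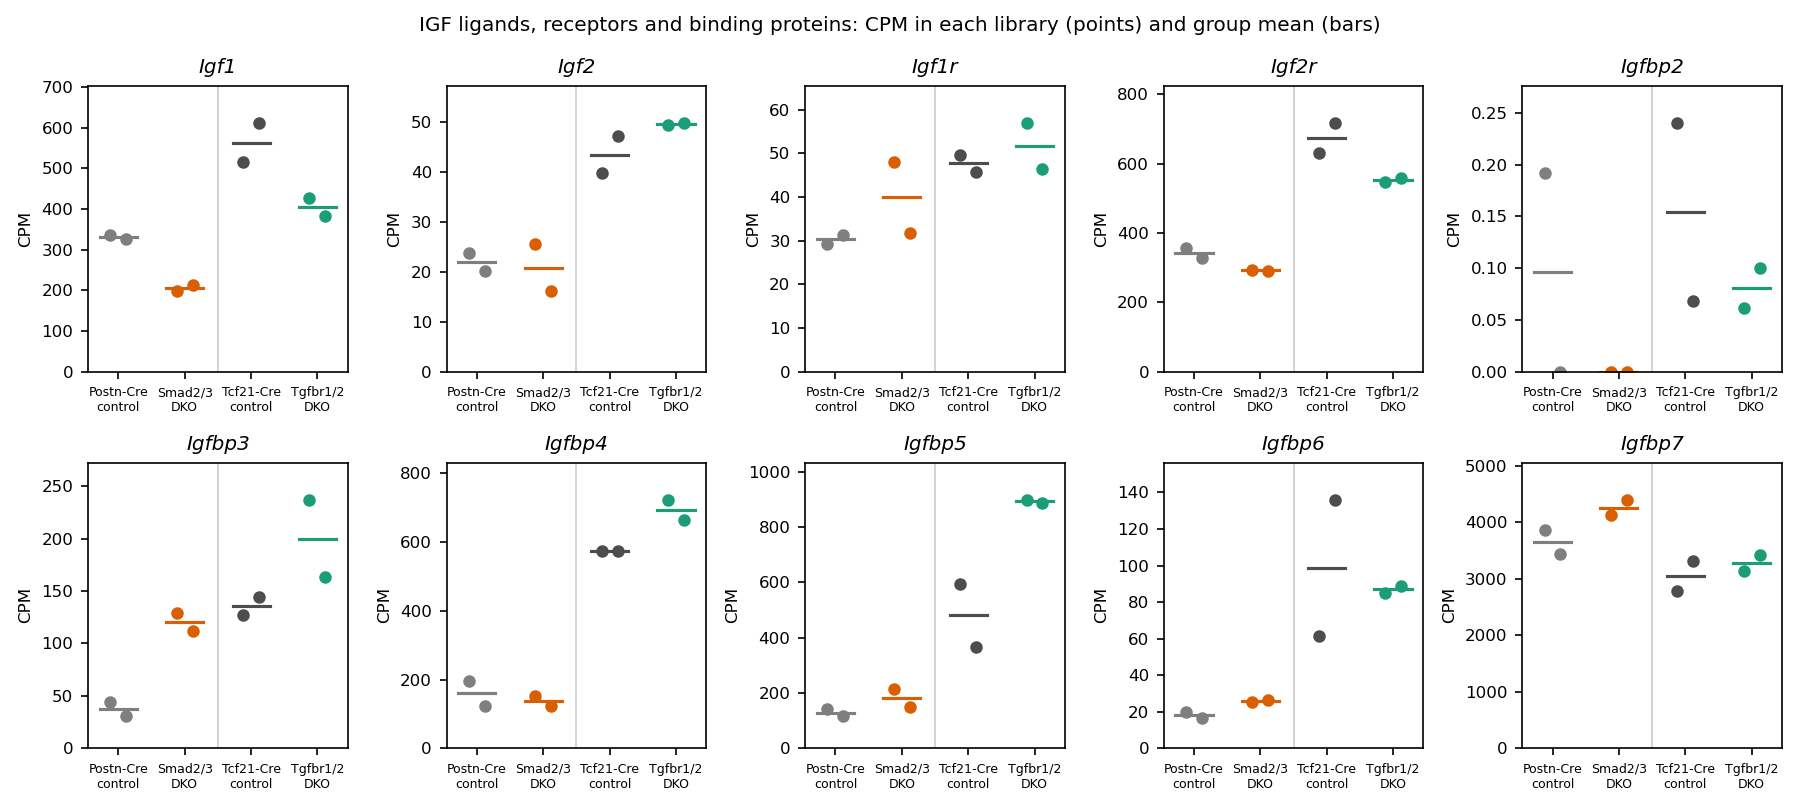
Each panel shows one member, with CPM (linear axis from 0) for the 8 libraries as points and the mean of the 2 libraries of each group as a bar; a grey line divides the 2 sequencing runs. Igfbp3 in the Smad2/3 DKO (129 and 112 CPM) lies above its control (44.1 and 31.1 CPM), and Igfbp5 in the Tgfbr1/2 DKO (899 and 887 CPM) above its control (593 and 368 CPM).

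Loss of Smad2/3, which carry the signal of the TGF-beta receptors to the nucleus, was examined in the Postn-Cre pair. Igfbp3, whose product is the main carrier of IGFs in blood, rose about 3.08-fold in the Smad2/3 DKO, and Igf1, the ligand, fell to 0.60 of its control level. The other 7 tested members did not pass the threshold. Thus 2 of 9 tested members were called, 1 in each direction, beside 1.29% of all 15760 symbols tested (204 called; 71 or 0.451% higher and 133 or 0.844% lower) by edgeR at an adjusted p below 0.05. The median log2 fold change was 0.45 for the 5 tested binding protein genes, -0.44 for the ligands, 0.03 for the receptors and 0.01 for all symbols tested.

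Igfbp3 was at 44.1 and 31.1 CPM in the Postn-Cre controls and at 129 and 112 CPM in the Smad2/3 DKO. Both knockout libraries were above both controls. The log2 fold change was 1.62 ± 0.23 (SE, n = 2 per group; edgeR adjusted p = 0.00538), and it ran from 1.38 without control HK4 to 1.92 without control HK3, with a call in all 11 alternative fits. The gene (ENSMUSG00000020427) lies on chromosome 11 at 7206086 to 7213923, minus strand (GRCm38), 3539 bp from Igfbp1 on the plus strand, which had 0 to 0.115 CPM. Its RefSeq promoter window (300 bases around the start, chr11:7213874-7214173, minus strand, GRCm38.p6) is shown because it belongs to the member with the largest fold change between a knockout and its control:

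Igfbp3: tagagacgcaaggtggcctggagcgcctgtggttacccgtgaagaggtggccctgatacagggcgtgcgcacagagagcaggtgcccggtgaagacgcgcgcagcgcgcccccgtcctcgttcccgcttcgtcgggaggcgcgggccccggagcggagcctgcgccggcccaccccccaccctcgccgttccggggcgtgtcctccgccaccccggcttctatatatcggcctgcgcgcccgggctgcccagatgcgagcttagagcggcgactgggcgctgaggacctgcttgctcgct

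Igf1 was at 336 and 326 CPM in the Postn-Cre controls and at 198 and 214 CPM in the Smad2/3 DKO, and the groups did not overlap. It fell by 0.74 ± 0.15 on the log2 scale (SE, n = 2 per group; edgeR adjusted p = 0.0388). This call was near the threshold: the adjusted p was 0.0794 without control HK3, 0.25 without DKO HK15, 0.101 without DKO HK16 and 0.0749 in a fit of all 8 libraries, with log2 values from -0.81 to -0.68 over all 11 alternatives. Igf1 (ENSMUSG00000020053) lies on chromosome 10 at 87858265 to 87937042, plus strand. Its RefSeq promoter window (chr10:87860861-87861160, plus strand, GRCm38.p6) lies within this span, downstream of its first base. It was the only Igf1 window searched, and the sequence at the first base of the span was not searched. The window is shown for comparison with that of Igfbp3, with a match to the Smad-type motif GGCGCC in capitals:

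Igf1: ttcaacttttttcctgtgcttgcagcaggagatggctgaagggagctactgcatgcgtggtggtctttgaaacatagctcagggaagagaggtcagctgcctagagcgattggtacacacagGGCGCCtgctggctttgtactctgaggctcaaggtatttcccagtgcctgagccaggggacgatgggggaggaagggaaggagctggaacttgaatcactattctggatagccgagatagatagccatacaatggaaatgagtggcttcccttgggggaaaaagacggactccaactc

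Among the members without a call, Igfbp5 was at 141 and 116 CPM in the Postn-Cre controls and at 215 and 151 CPM in the Smad2/3 DKO. Its groups did not overlap, but the log2 fold change of 0.45 ± 0.20 did not pass (unadjusted p = 0.0471, edgeR adjusted p = 0.36). Igfbp6, which prefers IGF2, was at 20.0 and 16.5 CPM against 25.4 and 26.4 CPM (0.45 ± 0.28, edgeR adjusted p = 0.551), and Igfbp7 at 3865 and 3446 CPM against 4126 and 4400 CPM (0.16 ± 0.14, adjusted p = 0.676). For Igfbp4 the groups overlapped, with 195 and 124 CPM without the knockout and 151 and 123 CPM with it. Its log2 value of -0.28 ± 0.22 (edgeR adjusted p = 0.66) was 0.11 without control HK3.

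Both receptor genes stayed short of the threshold. Igf2r was at 357 and 328 CPM in the Postn-Cre controls against 294 and 290 CPM in the Smad2/3 DKO, 2 groups that did not overlap (-0.29 ± 0.15, edgeR adjusted p = 0.433). Igf1r was at 29.3 and 31.3 CPM against 48.1 and 31.8 CPM, where DKO HK15 alone stood apart (0.34 ± 0.27, edgeR adjusted p = 0.649; 0.03 without it). Igf2, the fetal growth ligand, was at 23.7 and 20.1 CPM against 25.5 and 16.1 CPM, with overlapping groups (-0.14 ± 0.32, adjusted p = 0.911). The authors' deposited table gave log2 fold changes of 1.70 for Igfbp3, -0.69 for Igf1, 0.49 for Igfbp5 and 0.51 for Igfbp6.

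**Figure D2:**
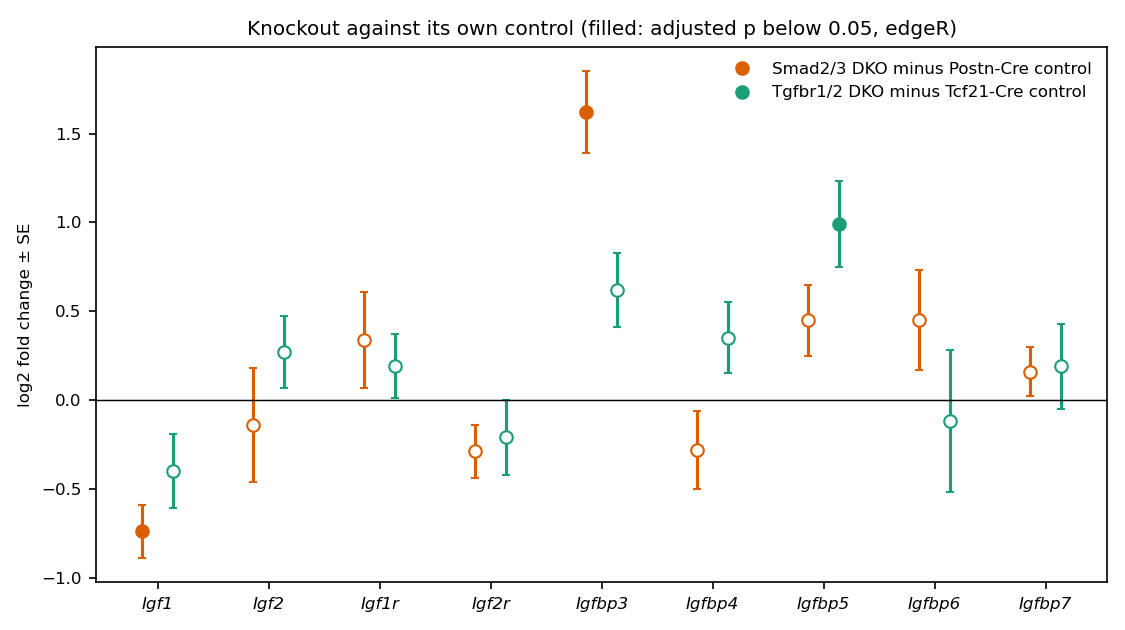
The vertical axis gives the log2 fold change ± SE of each tested member, knockout minus its own control (2 libraries per group), in orange for Smad2/3 DKO and green for Tgfbr1/2 DKO; filled points passed an edgeR adjusted p of 0.05. Igfbp3 (1.62) and Igf1 (-0.74) are filled in the Smad2/3 pair and Igfbp5 (0.99) in the Tgfbr1/2 pair.

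Loss of the TGF-beta receptors was examined in the Tcf21-Cre pair. Igfbp5, a matrix-bound binding protein of fibroblasts and smooth muscle, was the member that passed, at a level 1.98-fold that of the controls and just inside the threshold. This was 1 of 9 tested members, beside 3.96% of all 16658 symbols tested (659 called; 440 or 2.64% higher and 219 or 1.31% lower). The median log2 fold change was 0.35 for the 5 tested binding protein genes, -0.07 for the ligands, -0.01 for the receptors and -0.01 for all symbols tested.

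Igfbp5 was at 593 and 368 CPM in the Tcf21-Cre controls and reached 899 and 887 CPM in the Tgfbr1/2 DKO. The knockout libraries were close to each other and above both controls, whereas the controls differed from each other by more than most genes did: the size of their log2 ratio, 0.69, was at the 91.7th percentile of the 8246 symbols with at least 10 CPM on average, whose median was 0.23. The log2 fold change was 0.99 ± 0.24 (SE, n = 2 per group; edgeR adjusted p = 0.04997). A call was made in 3 of 11 alternative fits, namely without the low-count filter (0.00403), with DESeq2 (0.0023) and without control HK6 (0.0333, log2 1.32). The adjusted p was 0.163 without control HK7 (log2 0.73), 0.0978 without DKO HK2, 0.179 without DKO HK4 and 0.05008 when counts were summed before rounding.

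Igfbp5 (ENSMUSG00000026185) lies on chromosome 1 at 72857932 to 72874884, minus strand, 5457 bp from the end of Igfbp2, the neighbour on the plus strand that was barely detected. This neighbouring pair held one of the more abundant binding protein genes and the least abundant one. Its RefSeq promoter window (chr1:72874816-72875115, minus strand, GRCm38.p6) is shown because it belongs to the called member of this pair:

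Igfbp5: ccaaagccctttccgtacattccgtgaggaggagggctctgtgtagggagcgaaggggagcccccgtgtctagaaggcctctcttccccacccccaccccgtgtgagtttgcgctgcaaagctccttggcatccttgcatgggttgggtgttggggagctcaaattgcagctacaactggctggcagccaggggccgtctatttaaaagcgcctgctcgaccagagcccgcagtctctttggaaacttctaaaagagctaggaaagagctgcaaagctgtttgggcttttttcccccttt

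Igfbp3 was at 127 and 144 CPM in the Tcf21-Cre controls and at 237 and 163 CPM in the Tgfbr1/2 DKO. The groups did not overlap, but the knockout libraries were spread widely and the log2 fold change of 0.62 ± 0.21 did not pass (unadjusted p = 0.0124, edgeR adjusted p = 0.127). Igfbp4, a soluble binding protein that inhibits IGF action until it is cut, was at 574 CPM in HK6 and HK7 alike and at 723 and 665 CPM in the DKO (0.35 ± 0.20, edgeR adjusted p = 0.363). Igfbp6 was at 61.7 and 136 CPM in controls HK6 and HK7, on either side of the DKO libraries at 85.0 and 89.0 CPM (-0.12 ± 0.40, adjusted p = 0.908). The log2 value of Igfbp6 was 0.64 without control HK7 and -0.60 without control HK6, so its sign rested on which control was kept. Igfbp7 overlapped between the groups, at 2791 and 3311 CPM against 3145 and 3420 CPM (0.19 ± 0.24, edgeR adjusted p = 0.725).

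The ligand Igf1 was at 515 and 611 CPM in the Tcf21-Cre controls and at 427 and 383 CPM in the Tgfbr1/2 DKO, without overlap, and its log2 fold change of -0.40 ± 0.21 did not pass (edgeR adjusted p = 0.323). Igf2 was at 39.7 and 47.2 CPM against 49.3 and 49.7 CPM (0.27 ± 0.20, adjusted p = 0.503). Of the receptors, Igf2r was at 630 and 716 CPM against 548 and 557 CPM (-0.21 ± 0.21, edgeR adjusted p = 0.64), and Igf1r overlapped between the groups at 49.7 and 45.8 CPM against 56.9 and 46.4 CPM (0.19 ± 0.18, adjusted p = 0.608). In the authors' deposited table the log2 fold changes were 0.94 for Igfbp5, 0.54 for Igfbp3, -0.47 for Igf1 and 0.27 for Igfbp4.

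Whether the knockouts differed in their effect on a member was tested directly, as the Smad2/3 effect minus the Tgfbr1/2 effect in a fit of all 8 libraries. None of the 9 tested members passed with edgeR, beside 1.83% of 17770 symbols. At an unadjusted edgeR p below 0.05 the count was 1 member, beside 3092 of the 17770 symbols. With DESeq2 it was 0 members at an adjusted p below 0.05, beside 1145 symbols. That 1 member was Igfbp3, whose effects of 1.62 and 0.62 differed by 0.99 ± 0.31 (unadjusted p = 0.00933, edgeR adjusted p = 0.139; 0.0377 without the low-count filter, and 0.0944 to 0.396 with 1 library left out). Igfbp4 had values of opposite sign, -0.28 and 0.35, and a difference of -0.64 ± 0.32 (edgeR adjusted p = 0.325). For Igf1 the difference was -0.35 ± 0.25 (adjusted p = 0.51) and for Igfbp5 it was -0.55 ± 0.34 (adjusted p = 0.44). The calls of Igf1 and Igfbp3 in one pair and of Igfbp5 in the other were therefore not shown to be specific to either knockout.

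The control groups were compared with each other in the same fit, which shares its control libraries with both knockout comparisons. Here 5 of 9 tested members were called, all higher in the Tcf21-Cre controls, beside 34.9% of 17770 symbols (6193 called; 18.9% higher and 15.9% lower). They were Igf2r (0.69 ± 0.18 log2, edgeR adjusted p = 0.0111), Igfbp3 (1.56 ± 0.23, adjusted p = 0.000531), Igfbp4 (1.55 ± 0.23, 0.000546), Igfbp5 (1.60 ± 0.24, 0.000664) and Igfbp6 (2.16 ± 0.34, 0.000756). The median over the 5 tested binding protein genes was 1.56, against 0.12 over all symbols tested. Igfbp6 had the widest spread, at 1.42 without Tcf21-Cre control HK7 and 2.63 without HK6. Its log2 ratio between those controls, 1.13 in size, was at the 97.6th percentile of the 8246 symbols.

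Igf2r lost its call without Postn-Cre control HK4 (edgeR adjusted p = 0.0755) and without Tcf21-Cre control HK7 (0.0855). Igf1 at 0.48 ± 0.17 (edgeR adjusted p = 0.0527; 0.0379 without HK6) and Igf2 at 0.70 ± 0.26 (adjusted p = 0.0565) stood just outside the threshold. Igf1r was at 0.37 ± 0.22 (edgeR adjusted p = 0.233). Igfbp7 had the opposite sign at -0.55 ± 0.20 (adjusted p = 0.0562), and was called with DESeq2-type size factors (0.0297), without the low-count filter (0.0382) and with DESeq2 (0.00809). Since run and driver changed together, these values compare libraries and not fibroblast populations alone.

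Ordered by level over the 4 groups, the members showed a few patterns. Igf1, Igf2, Igf2r, Igfbp4, Igfbp5 and Igfbp6 were lower in both groups of the Postn-Cre run than in both groups of the Tcf21-Cre run, with no overlap between the runs. Igfbp7 separated the runs in the opposite direction, at 3446 CPM or more against 3420 CPM or less. The share of all symbols that separated the runs was not counted, so this separation cannot be read as particular to these genes. By another measure, the edgeR call between the control groups, 34.9% of 17770 symbols differed. Igf1 was ordered Smad2/3 DKO, Postn-Cre control, Tgfbr1/2 DKO and Tcf21-Cre control (means of 206, 331, 405 and 563 CPM), and no neighbours in that order overlapped. Igf2r had the same order, at means of 292, 343, 552 and 673 CPM. Igfbp3 had another order, from 37.6 CPM in the Postn-Cre control to 121 in the Smad2/3 DKO and 136 in the Tcf21-Cre control, which overlapped, and 200 in the Tgfbr1/2 DKO. Igfbp7 ran the other way, with its highest mean, 4263 CPM, in the Smad2/3 DKO and its lowest, 3051 CPM, in the Tcf21-Cre control.

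The make-up of the binding protein transcripts was read as each gene's percentage of the summed CPM per kb of the 6 Igfbp genes. Igfbp7 made up 97 and 97.5% in the Postn-Cre controls, 96.2 and 97% in the Smad2/3 DKO, 87.7 and 88.4% in the Tcf21-Cre controls and 84.8 and 86.8% in the Tgfbr1/2 DKO. The high-affinity binding protein genes were thus a small part of the transcripts in every library and a larger one in the Tcf21-Cre run. Igfbp3 took 0.427 and 0.34% in the Postn-Cre controls and 1.16 and 0.955% in the Smad2/3 DKO. Igfbp5 took 3.75 and 1.98% in the Tcf21-Cre controls and 4.88 and 4.53% in the Tgfbr1/2 DKO. The summed level itself ran from 2633 to 3752 CPM per kb, and transcript shares do not give shares of protein.

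**Figure D3:**
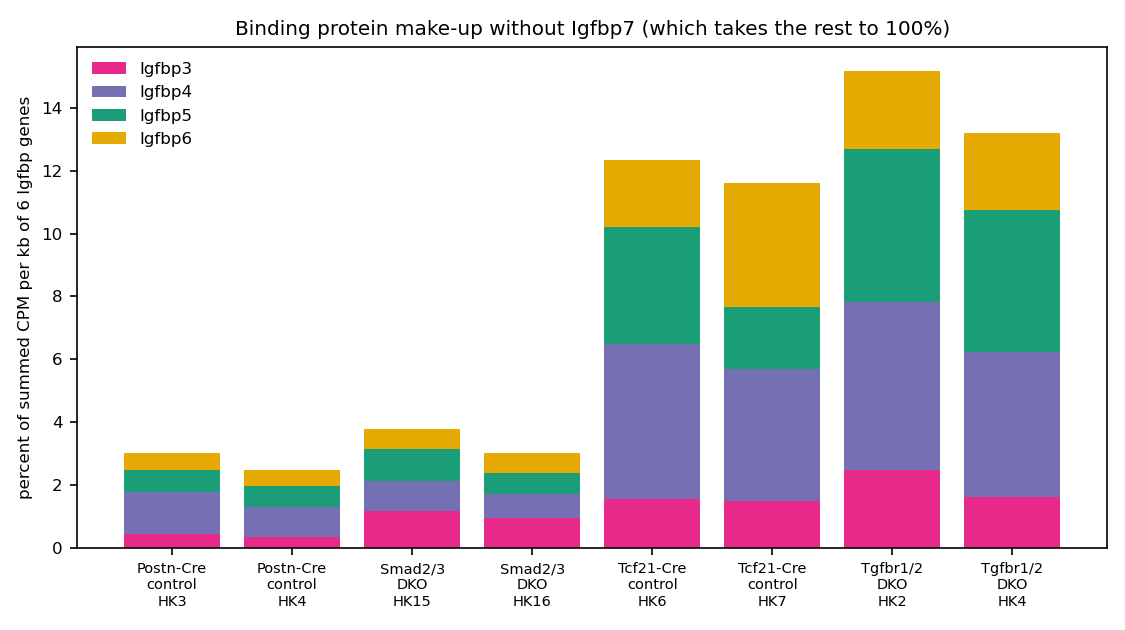
Stacked bars give, for each library, the percentage of the summed CPM per kb of 6 Igfbp genes taken by Igfbp3, Igfbp4, Igfbp5 and Igfbp6; Igfbp7 makes up nearly all of the remainder and Igfbp2 at most 0.00493%. The bars of Igfbp3 are higher in the Smad2/3 DKO (1.16 and 0.955%) than in the Postn-Cre controls (0.427 and 0.34%), and all 4 genes take larger shares in the Tcf21-Cre run.

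Genes whose products cut, inhibit or bind the binding proteins formed a list of 16, of which 15 were tested. In the Smad2/3 DKO, 1 rose and 1 fell, beside 1.29% of all symbols called (list median -0.41, all symbols 0.01). In the Tgfbr1/2 DKO 4 rose and none fell, beside 3.96% of all symbols called and 2.64% higher (list median 0.09, all symbols -0.01). Adam12, a membrane metalloprotease that cuts IGFBP3 and IGFBP5, had 24.2 and 26.6 CPM in the Postn-Cre controls and 1.76 and 2.37 CPM in the Smad2/3 DKO. It fell by 3.67 ± 0.38 there (edgeR adjusted p = 0.00148). In the Tcf21-Cre pair it went from 14.1 and 9.38 CPM to 60.1 and 58.3 CPM, a rise of 2.42 ± 0.23 (edgeR adjusted p = 0.000486). The effects were of opposite sign, and their difference of -6.11 ± 0.39 passed (edgeR adjusted p = 3.13e-05).

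Mmp3, stromelysin-1, which also cuts IGFBPs, rose in both knockouts. It had 2.69 and 8.27 CPM in the Postn-Cre controls and 27.3 and 38.5 CPM in the Smad2/3 DKO (2.54 ± 0.47, edgeR adjusted p = 0.0279; 0.0605 without DKO HK16; log2 1.95 without control HK3 and 3.54 without HK4). In the Tcf21-Cre pair its levels were 1.75 and 0.924 CPM against 9.63 and 12.5 CPM in the DKO (3.15 ± 0.40, adjusted p = 0.00321). Plau, the urokinase plasminogen activator, was at 20.6 and 20.9 CPM in the Tcf21-Cre controls and at 60.7 and 70.7 CPM in the Tgfbr1/2 DKO (1.75 ± 0.21, edgeR adjusted p = 0.00222), and its value in the Smad2/3 pair was 0.40 ± 0.30 (adjusted p = 0.63).

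Pappa, pregnancy-associated plasma protein A, is the protease that cuts IGFBP4 and IGFBP5. It was at 41.6 and 24.1 CPM in the Tcf21-Cre controls and at 62.6 and 68.2 CPM in the Tgfbr1/2 DKO, so that the knockout libraries stood above both controls. The rise of 1.09 ± 0.24 (edgeR adjusted p = 0.0384) was lost without control HK7 (0.108), without DKO HK4 (0.15) and without robust estimation (0.0601), and was 1.48 without control HK6. In the Smad2/3 pair Pappa was at 63.1 and 71 CPM against 61.8 and 67.1 CPM (-0.11 ± 0.20, adjusted p = 0.875). The differences between the knockouts did not pass for Pappa (-1.21 ± 0.33, edgeR adjusted p = 0.0938), Plau (-1.36 ± 0.34, 0.0771) or Mmp3 (-0.61 ± 0.68, 0.701).

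**Figure D4:**
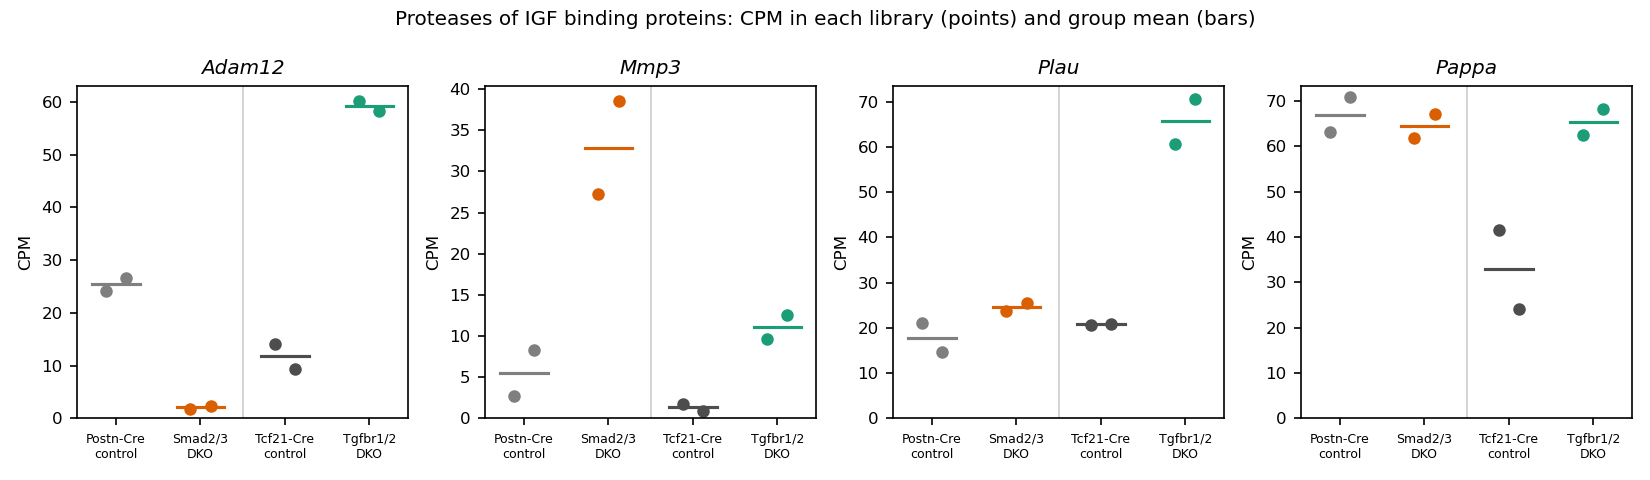
Each panel gives CPM (linear axis from 0) in the 8 libraries as points and the mean of each group as a bar for the 4 protease genes called in a knockout comparison. Adam12 is lower in the Smad2/3 DKO (1.76 and 2.37 CPM) and higher in the Tgfbr1/2 DKO (60.1 and 58.3 CPM) than in its own controls, and Mmp3 is higher in both.

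The list of receptor signalling (IRS adaptors, PI3K, AKT, mTOR and FOXO) held 28 genes, all tested. None was called in either knockout by edgeR, beside 1.29% and 3.96% of all symbols, with list medians of 0.04 and -0.15. None was called for the difference either, beside 1.83% of symbols. A list of this length can lack a call at such shares without differing from all symbols. Of 12 other genes of the axis, among them Igfbp1, the insulin receptor and the IGF2 mRNA-binding proteins, 6 were tested in the Smad2/3 pair and 7 in the Tgfbr1/2 pair. None of them was called, beside the same 1.29% and 3.96% of all symbols. The most abundant of these were Ghr, the growth hormone receptor (173 to 259 CPM; 0.22 ± 0.17 and 0.25 ± 0.18 in the knockouts), and Insr, the insulin receptor (43 to 85.2 CPM; 0.25 ± 0.25 and -0.33 ± 0.19).

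Between the control groups, 17 of the 28 signalling genes were called, 7 higher and 10 lower in the Tcf21-Cre controls (median -0.15), beside 34.9% of all symbols called, 18.9% higher and 15.9% lower (median 0.12). Those called in all 10 alternative fits included Irs1 (1.42), Irs2 (1.30), Akt1 (1.54) and Pik3r2 (2.01; 1.65 without Postn-Cre HK4 and 1.67 without Tcf21-Cre HK7) among the higher. Among the lower they included Sos1 (-1.48), Rps6kb1 (-1.47), Rheb (-1.16), Rictor (-0.95) and Pik3r1 (-0.79). The calls of Pik3ca, Pik3cb, Foxo1, Foxo3, Tsc2, Mtor and Eif4ebp1 each failed without at least 1 library. Without Tcf21-Cre HK7, the adjusted p (edgeR) was 0.183 for Pik3ca, 0.168 for Pik3cb, 0.163 for Foxo1, 0.118 for Foxo3, 0.123 for Mtor and 0.203 for Eif4ebp1. Without Postn-Cre HK4 it was 0.276, 0.0772, 0.12, 0.0574 and 0.188 for Pik3ca, Pik3cb, Foxo3, Tsc2 and Eif4ebp1 (edgeR adjusted p). Without Postn-Cre HK3 the adjusted p (edgeR) was 0.11 for Pik3cb, 0.224 for Foxo1, 0.129 for Mtor and 0.0582 for Eif4ebp1, and without Tcf21-Cre HK6 it was 0.0703, 0.157, 0.0901 and 0.0799 for Pik3ca, Pik3cb, Foxo1 and Mtor. Of the binding protein proteases and receptors, Htra1 (2.42), Tmem219 (1.72) and Mmp2 (0.87) were higher, and Pappa (-1.33), Adam12 (-1.41), Adamts1 (-1.15) and Mmp3 (-2.32) lower. The calls of Mmp2, Adamts1 and Mmp3 failed without HK7 (edgeR adjusted p of 0.153, 0.0963 and 0.0516), that of Adamts1 also without HK3 (0.0595) and those of Mmp2 and Mmp3 without Postn-Cre HK4 (0.114 and 0.0552, with Mmp3 at -1.32). The call of Eif4ebp1, at -1.30, had a log2 value of -0.71 without HK7 and -2.32 without HK6.

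Markers of some other cell types differed in level between the groups. Between the control groups, 1 of 12 endothelial markers was called higher and 2 lower in the Tcf21-Cre controls. Of 10 pericyte and smooth muscle markers, 3 were higher and 1 lower there. Of 10 cardiomyocyte markers 1 was lower, and of 10 macrophage markers 2 were higher. No lymphocyte, epicardial or Schwann marker was called between the controls, beside 34.9% of all symbols called by edgeR. Summed macrophage markers (10 listed) were at 57.5 to 84.8 CPM in the Tcf21-Cre controls and 208 to 225 CPM in the Tgfbr1/2 DKO, where 4 of 10 tested rose: Cd74 (1.61), Csf1r (1.34), Itgam (1.72) and Adgre1 (2.46). They were at 31.6 to 37.6 CPM in the Postn-Cre run, where C1qa was at 0 in both groups and Ptprc and Adgre1 at 0 in the Smad2/3 DKO. Summed endothelial markers (12 listed, all tested) were at 274 to 583 CPM in the Postn-Cre controls, 174 to 279 CPM in the Smad2/3 DKO, 439 to 482 CPM in the Tcf21-Cre controls and 569 to 598 CPM in the Tgfbr1/2 DKO. None was called in the Smad2/3 pair (list median -1.24), and Eng (0.78) and Fabp4 (1.06) rose in the Tgfbr1/2 DKO. Summed markers of pericytes and smooth muscle (10 listed, all tested) were at 889 to 1599, 831 to 1091, 740 to 1158 and 1062 to 1101 CPM in the same order. Of these, Kcnj8 fell in the Smad2/3 DKO, from 28.9 and 13.4 CPM to 3.53 and 1.35 CPM (-3.17 ± 0.54, edgeR adjusted p = 0.0177; 0.0644 and -2.49 without control HK3, and -4.02 as the lowest value with another library left out), and none was called in the Tgfbr1/2 pair.

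Summed cardiomyocyte markers (10 listed) were at 664 to 716, 708 to 761, 562 to 570 and 578 to 666 CPM in the order above. None was called in either pair (list medians -1.21 and -0.09), nor was any lymphocyte or Schwann marker. Summed epicardial markers (6 listed) were at 60.9 to 70.2 CPM in the Postn-Cre controls and 36.5 to 42.1 CPM in the Smad2/3 DKO. None was called there. They were at 46.3 to 84 CPM in the Tcf21-Cre controls and 427 to 444 CPM in the Tgfbr1/2 DKO. Nearly all of the latter was Aldh1a2 (387 and 420 CPM), which rose by 3.73. The other 4 tested were not called, and the list median was 2.09. Upk3b (2.09) and Msln (3.14) had higher values in the Tgfbr1/2 DKO, and Wt1 (-0.86) and Tbx18 (-0.03) lower ones. Upk3b, Msln and Wt1 were at 3.59 CPM or less in this pair. The 7 marker calls in the Tgfbr1/2 pair had edgeR adjusted p of 0.023 to 0.0423. They were 4 of 10 macrophage, 2 of 12 endothelial and 1 of 5 epicardial markers tested, beside 3.96% of all symbols called. No marker of the other lists was called in that pair. All 7 were lost without DKO HK4 (edgeR adjusted p of 0.0832 to 0.285). Without DKO HK2, Eng, Fabp4, Adgre1, Itgam and Aldh1a2 were lost (0.0577 to 0.286), without control HK6 Eng, Fabp4, Adgre1, Csf1r and Cd74 (0.0551 to 0.115), and without control HK7 Eng and Itgam (0.121 and 0.0813). Aldh1a2 was also lost without the low-count filter (0.16), and Eng, Fabp4, Adgre1, Csf1r and Cd74 in a fit of all 8 libraries (0.0673 to 0.574). Eng, Adgre1 and Csf1r were lost without robust estimation as well (edgeR adjusted p of 0.0573 to 0.0621). The part of these cells, of the fibroblast markers given above and of the Xist difference in the values of Igf1, Igfbp3 and Igfbp5, and in the calls between the control groups, was not tested.

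The other members lie on chromosome 7 (Igf1r, 67952827 to 68233668, plus strand; Igf2, 142650766 to 142666816, minus strand), chromosome 17 (Igf2r, 12682406 to 12769664, minus strand), chromosome 11 (Igfbp4, 99041244 to 99054392, plus strand), chromosome 15 (Igfbp6, 102144362 to 102149511, plus strand) and chromosome 5 (Igfbp7, 77349240 to 77408041, minus strand). No source used here says that reads were counted by strand. Airn, the antisense RNA of the imprinted Igf2r locus, overlaps Igf2r without sharing exon bases and had 35.5 and 44 CPM in the Postn-Cre controls, 52.4 and 69.5 in the Smad2/3 DKO, 51.6 and 44.1 in the Tcf21-Cre controls and 32.6 and 22 in the Tgfbr1/2 DKO. Neither knockout changed it past the threshold (0.56 ± 0.24, edgeR adjusted p = 0.32, and -0.74 ± 0.21, adjusted p = 0.0858). Polr2b shares 7.0% of the exon bases of Igfbp7 on the opposite strand and was at 79.3 to 119 CPM. Reads from these pairs cannot be told apart by strand where they overlap.

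Genes with the level pattern most like that of a member were named by Pearson's r of log2(CPM + 1) over the 8 libraries, among 13266 candidates. These libraries share runs and groups, so r describes the ordering of groups as much as anything else and is given without a p. Igfbp3 was most like Galntl2 (r = 0.992), which had 12.5 and 7 CPM in the Postn-Cre controls and 57.9 and 45.5 CPM in the Smad2/3 DKO, followed by Sema4b (0.983) and Ube2q1 (0.982). Igf1 was most like D0H4S114 (0.993), Tk2 (0.986) and Lum (0.985), the proteoglycan lumican at 1671 to 3656 CPM. Igfbp5 was most like Bcl3 (0.995), Hsd11b1 (0.993) and C4a (0.992). Igf2r was most like Ccdc80 (0.994), Zfp618 (0.994) and Serpinf1 (0.993). The leading genes for the others were Tmem167b for Igf2 (0.995), Tmem63b for Igf1r (0.982), Gbf1 for Igfbp4 (0.999), Hint2 for Igfbp6 (0.992) and Nlrc5 for Igfbp7 (0.967), with Ctgf next (0.967).

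Promoter windows of 300 bases were matched for all 10 members (14 windows, since Igf2 has 4 and Igfbp2 has 2). They were searched on both strands for the Smad-type motifs CAGACA, GTCTAGAC and GGCGCC and for the AP-1 motif TGACTCA, which 21%, 0.213%, 11.9% and 5.2% of all 32851 promoter windows hold. CAGACA was found in 2 of the Igf2 windows, GGCGCC in that of Igf1 and TGACTCA in 1 of the Igfbp2 windows. The windows of Igfbp3 and Igfbp5, printed above, held none of the 4 letter strings. A match is a description of the sequence alone, and its absence says only that these letters are not in this window.

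**Figure D5:**
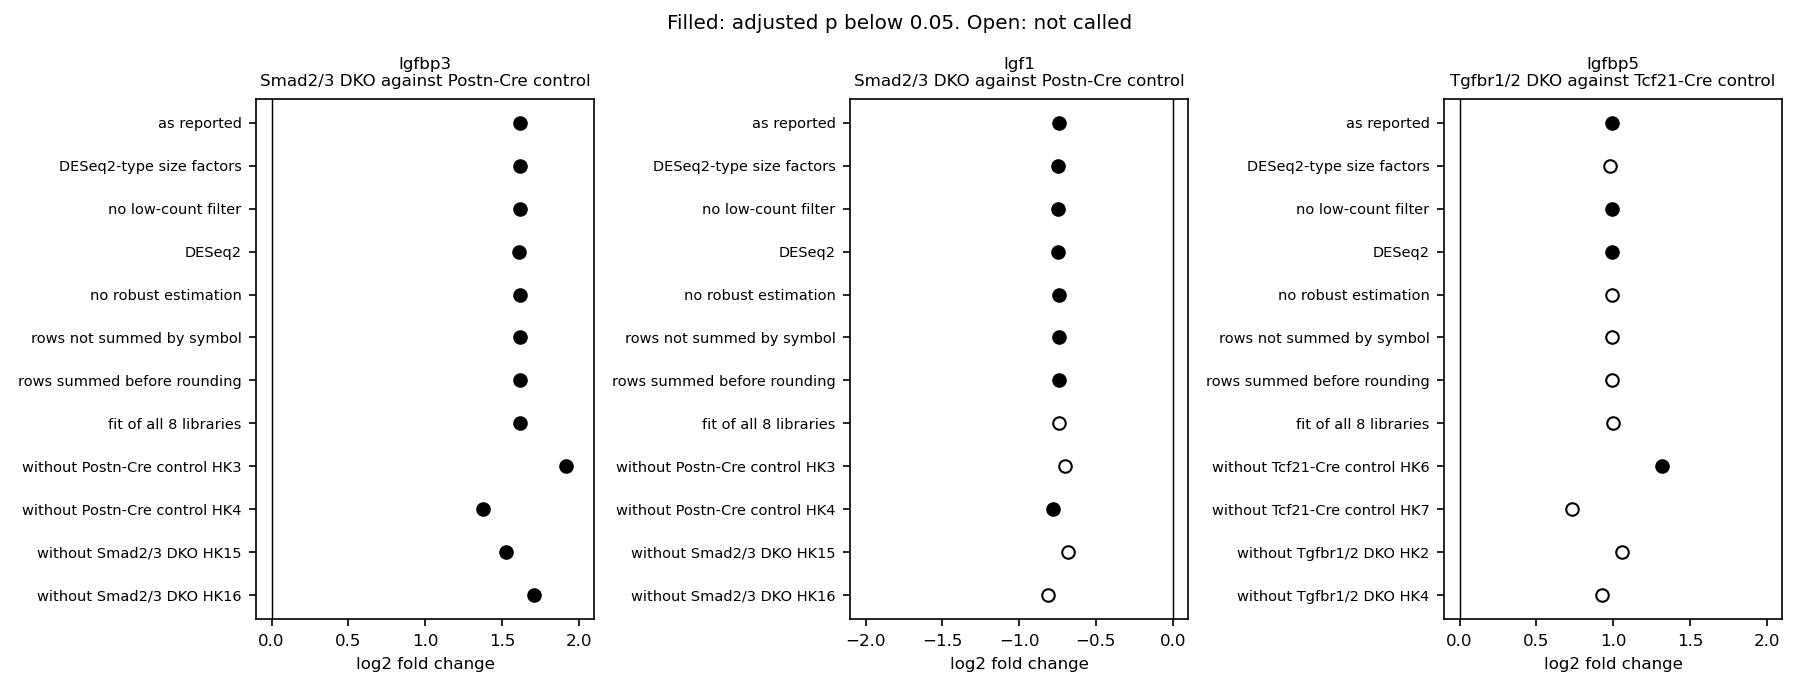
The horizontal axis gives the log2 fold change of Igfbp3 and Igf1 (Smad2/3 DKO against Postn-Cre control) and Igfbp5 (Tgfbr1/2 DKO against Tcf21-Cre control) as reported and in 11 alternative fits; filled points had an adjusted p below 0.05 and open points did not. Igfbp3 stays filled throughout (1.38 to 1.92), Igf1 is open in 4 fits and Igfbp5 in 8.

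The plot of alternative fits sets the calls side by side. Igfbp3 in the Smad2/3 DKO was called in all 11, Igf1 in 7 and Igfbp5 in the Tgfbr1/2 DKO in 3, while the direction of each was kept in all of them.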

How the data were processed

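RNA of 8 libraries in 4 groups of 2 was amplified (Ovation RNA-Seq v2), tagmented with Nextera XT and sequenced on a HiSeq2500, per the labels' protocols, which describe no marking of strand. Expected counts, named raw in the file headers, were deposited by the authors for 38087 Ensembl genes in each of 2 tables. The build was mm10, per the submitters' processing notes; aligner and counter are not given in these sources. The log2 fold change in the authors' deposited tables subtracts group means of normalized, median-centred log2 values, per the file headers, and lists every gene without a test.

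Expected counts were rounded and entries of one symbol summed, which left 34399 symbols; CPM is the count over the library total. In edgeR 4.0.16 (R 4.3.3; TMM, filterByExpr, robust quasi-likelihood F test), each knockout was fitted with its own controls, and the difference and the control groups in all 8 libraries. P-values are two-sided and adjusted (Benjamini-Hochberg) over all symbols tested, with a threshold of 0.05. The SE of an edgeR log2 fold change is its absolute value divided by the square root of the F statistic. That statistic draws on the dispersion of all symbols tested, so the SE is no spread of the 2 libraries of a group alone. An exact permutation test of 2 against 2 cannot go below p = 0.333. Alternatives were DESeq2 1.42.0, DESeq2-type size factors, no low-count filter, no robust estimation, unsummed entries, a fit of all 8 libraries, each library left out and, chosen after seeing the data, summing before rounding. Fits were tested on simulated counts. Gene positions and exon lengths are from GENCODE vM21 (GRCm38), promoters from RefSeq (GRCm38.p6).

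The members and lists were chosen with earlier results of these data known. Named genes were all members, genes of the 3 other pathway lists past the threshold in any comparison (the 2 most abundant where fewer than 2 passed), and the 3 genes most like each member of at least 5 CPM. Totals of 21477742 to 32594649 counts put 3 counts at 0.092 to 0.14 CPM. Such limits cover counting error only: amplified reads are no independent molecules.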

Additional observations from a re-analysis of the deposited data

Results flagged for a closer look

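Adam12, which encodes a protease of IGFBP3 and IGFBP5, was the gene of the pathway lists whose response differed between the knockouts in a direct test, and no member did. It fell by 3.67 on the log2 scale in the Smad2/3 DKO and rose by 2.42 in the Tgfbr1/2 DKO, and the difference was -6.11 ± 0.39 (SE; edgeR adjusted p = 3.13e-05; 2 libraries in each of 4 groups). Both Smad2/3 DKO libraries were below both of their controls and both Tgfbr1/2 DKO libraries above theirs. The difference lay between -6.40 and -5.89 in all 14 alternative fits, with adjusted p of 0.000382 at most. Run and Cre driver changed together with the targeted genes and cannot be told apart from them. Markers of cell types were also tested for the difference, beside 1.83% of 17770 symbols called by edgeR. Those tested were 12 fibroblast, 12 endothelial, 10 pericyte and smooth muscle, 10 cardiomyocyte, 10 macrophage, 4 lymphocyte, 5 epicardial and 5 Schwann markers. Of the cell type markers, 4 also differed: Aldh1a2 by -5.04 ± 0.54 (edgeR adjusted p = 0.00143), Eng by -1.71 ± 0.27 (0.0149; 0.0607 without Smad2/3 DKO HK16), Kcnj8 by -3.89 ± 0.69 (0.0212) and Col3a1 by -1.88 ± 0.37 (0.0314). Kcnj8 lost this call without Postn-Cre control HK3, Smad2/3 DKO HK16, Tcf21-Cre control HK7 or Tgfbr1/2 DKO HK4 (0.05027 to 0.0632), and Col3a1 without Postn-Cre control HK3, Smad2/3 DKO HK15 or HK16 or Tgfbr1/2 DKO HK4 (0.0754 to 0.0957).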

How the results depend on the processing

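For the members, 383 of 414 alternative values (36 results) kept their direction and their side of the threshold, 14 lost and 6 gained a call, and 11 changed sign, all of the last without a call. For the other pathway genes, 288 of 320 kept both and 32 lost the call. For the 15 marker calls of the knockouts and their difference, 139 of 177 kept both and 38 lost the call. With 1 library left out, the lone library of its group is assumed to vary like the others, and fewer libraries enter the fit. All symbols called in the Smad2/3 pair then numbered 105 to 297 (105 without DKO HK15), in the Tgfbr1/2 pair 271 to 485 (271 without DKO HK4, 336 without DKO HK2, 365 without control HK7), for the difference 89 to 302 (89 without Tgfbr1/2 DKO HK4) and between the controls 3645 to 5653 (3645 without Tcf21-Cre HK7). Members called were 1 to 2, 0 to 1, 0 and 4 to 6. Without the low-count filter the counts were 819, 1233 and 1194 in the pairs and for the difference, with 1 member (Igfbp3) called for the difference, and with DESeq2 they were 766, 1101 and 1145. In a fit of all 8 libraries, the Tgfbr1/2 count was 299, and members called were 1 in the Smad2/3 pair and 0 in the Tgfbr1/2 pair. They were also 0 in the Tgfbr1/2 pair with DESeq2-type size factors, without robust estimation, with unsummed entries and with sums taken before rounding. The cause of these shifts was not tested. Signs turned with 1 library left out for Igf2 (-0.49 to 0.15) and Igfbp4 (-0.58 to 0.11) in the Smad2/3 pair, Igfbp6 (-0.60 to 0.64) in the Tgfbr1/2 pair, and Igf1r (-0.18 to 0.41), Igf2r (-0.25 to 0.02), Igfbp6 (-0.20 to 1.02) and Igfbp7 (-0.22 to 0.11) for the difference. No paired analysis was possible because the HK numbers name libraries and pair nothing between groups. Depth limits the reading of Igfbp2, at 7 counts or fewer.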
